A study of Mus musculus with 16 samples.

Results

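The mTORC1 pathway was followed through 10 of its genes in antigen-stimulated T cells: Mtor, Rptor, Rheb, Tsc1, Tsc2, Ddit4, Rps6kb1, Eif4ebp1, Eif4ebp2 and Larp1. They were found by gene symbol or older alias among the probes of the array, and all 10 of them were present among 22328 genes with a probe, with 17 probes between them. The brightest probe stood for each gene. The RNA came from mouse lymph node T cells that were OT-1het (they carry a receptor transgene that recognises SIINFEKL, a peptide of ovalbumin) and Rag-/- (no other antigen receptors), and that were either Lck-/- (4 extracts) or WT for Lck (4 extracts), the kinase that starts signalling at this receptor. Both genotypes were stimulated with 100 nM of this peptide for 24 h, and cycloheximide at 100 µg/ml, which freezes ribosomes in place, was added 10 min before harvest. After centrifugation through 10 to 50% sucrose, the light fractions 1 to 5 formed the sub-polysomal pool and the heavy fractions 6 to 10 the polysomal pool, and both pools of an extract were hybridised to 1 array and, with the dyes swapped, to a second. The labels call the extracts replicates but name no separate animals or cultures as their sources; the p-values therefore measure the spread between these samples, which may be technical. No age is given. The series title marks the Lck-/- genotype as OFF, and the labels do not say what OFF means.

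mTORC1 is the protein kinase complex through which growth factors, antigen receptors and amino acids set the rate of protein synthesis. Mtor encodes its kinase and Rptor the subunit that recruits substrates. The small GTPase Rheb switches the kinase on, the Tsc1 and Tsc2 proteins together switch Rheb off, and the stress-induced Ddit4 product acts through them to restrain the complex. Among its effectors, the S6 kinase encoded by Rps6kb1 promotes translation, while the proteins of Eif4ebp1 and Eif4ebp2 bind the cap-binding factor eIF4E and hold translation back until mTORC1 phosphorylates them. LARP1 binds the cap and the run of pyrimidines that opens the mRNAs of ribosomal proteins and translation factors, called TOP mRNAs, and is itself an mTORC1 substrate. In T cells mTORC1 is best known for the growth and metabolic switch that follows antigen.

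Because the pathway is known for its control of TOP mRNAs, the first 25 bases of the annotated transcripts are shown for 4 members and for Rps6, the mRNA of a ribosomal protein that S6 kinase phosphorylates. The lines give the strand of the gene from the RefSeq start on build GRCm38.p6, and capitals mark the unbroken run of C and T at the start.
Larp1 (chr11:58009064-58009088, plus strand): gagccttctgcccggcgcgccactc
Mtor (chr4:148448582-148448606, plus strand): TCCCTggcctagaagacagcgggga
Eif4ebp2 (chr10:61452645-61452669, minus strand): Cgaccgggcgagagcaggcgagttg
Ddit4 (chr10:59951746-59951770, minus strand): ggttggcaccagttcgctcaccctt
Rps6 (chr4:86857343-86857367, minus strand): CTCTTTTTCgtgacgcctcccaggc
Rps6 opened with a C and a run of 9 pyrimidines. A start of the TOP kind, taken here as C followed by 4 bases that are each C or T, was found on the gene's strand in none of the 9 members with an entry (all but Eif4ebp1) and in 2.51% of all 32851 entries. Mtor came nearest, with 5 pyrimidines after the start but T as the first base. Annotated starts can differ from those used in T cells, and no match says only that these letters are not at this position.

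The polysomal channel of an array had 14619 to 50776 probes well above background (median 20212.5), and the sub-polysomal channel had 12531 to 30976 (median 22889). The 50776 came from a single array, that of Lck-/- replicate 1 with the polysomal pool in Cy5. The other arrays split by dye, with 22233 to 26643 where the polysomal pool was in Cy5 and 14619 to 18192 where it was in Cy3. No spot was saturated. All 12 T cell markers examined were detected, with a log2 summed level of 17.32 to 17.43 in Lck-/- extracts and 17.19 to 17.51 in WT extracts. Of the other lists, 1 of 6 B cell markers (Cd79b), 3 of 8 myeloid and dendritic cell markers (Csf1r, Itgam and Cd68), 1 of 2 CD4 T cell markers (Cd4), 0 of 3 NK cell markers and 0 of 6 stromal markers were detected, and their part in the results was not tested. Their log2 summed levels spanned 9.57 to 9.85 in Lck-/- and 9.57 to 9.65 in WT extracts for B cells, and 11.10 to 11.59 in Lck-/- and 11.10 to 11.82 in WT extracts for myeloid cells. Cd68 was detected in both channels on 4 of 8 Lck-/- and 7 of 8 WT arrays, with mean levels of 7.37 in Lck-/- and 8.15 in WT extracts. Itgam averaged 9.79 in Lck-/- and 10.49 in WT extracts, whereas Csf1r averaged 9.91 in Lck-/- and 9.63 in WT extracts. Lck itself had a mean level of 14.18 ± 0.13 in Lck-/- and 15.03 ± 0.21 in WT extracts (SD, n = 4 each). The labels do not say which part of Lck is deleted, so its probe may lie outside that part. Nor do they say what OFF means, so the probe does not check them. The extracts labelled WT replicates 1 and 2 stood apart in a check of dye swaps across genes. Each of their arrays went with the dye swap of the other (r = 0.86 and 0.93) and not with its own (r = -0.83 and -0.80). These r are read as agreement in how each gene departed from its usual log2 ratio, not in the ratios themselves. The ratio profiles were not inverted as a whole. Larp1, Rptor and Tsc1 lay above 0 and Rps6kb1 below 0 on both arrays of each extract, while Eif4ebp1, Eif4ebp2 and Rheb changed sign. For Ddit4 the log2 ratio was 1.74 on the array of WT replicate 1 with the polysomal pool in Cy5 and 0.22 on its dye swap, against -0.45 and 1.77 on the matching arrays of WT replicate 2. Averaging each pair as labelled therefore gives WT ratios that lie closer together than the arrays do. For Larp1 the SD of the 4 WT ratios was 0.09 as labelled and 0.58 with the dye swaps of these extracts exchanged. The 16 arrays were on 2 slides, and as labelled every extract had 1 array on each slide. The arrays that went together were those that shared a slide. The exchange thus puts both arrays of WT replicate 1 on slide 1 and both of WT replicate 2 on slide 2. Whether slide or label set these arrays apart was not tested. The exchange and the fits without both extracts are set beside the results below, as counts of calls kept for the other genes of the pathway.

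In both genotypes the mRNAs of Larp1, Ddit4, Rptor and Tsc1 sat on polysomes more than the typical mRNA did, and that of Eif4ebp1 less. The measure was the log2 ratio of polysomal over sub-polysomal intensity, with the typical mRNA of each array set to about 0. The mean of each genotype was tested against 0 with limma, in a joint fit of all 8 extracts with a shared variance. A change to the WT extracts therefore also moves the p-values of Lck-/- extracts, whose ratios stay the same. A difference was called where the Benjamini-Hochberg adjusted p over all genes tested was below 0.05. Of 8 members tested, Larp1, Ddit4, Rptor and Tsc1 lay above 0 in Lck-/- extracts and the same 4 in WT extracts, where 26.2% of all 8482 genes tested lay above 0 in Lck-/- and 32.7% in WT extracts. Eif4ebp1 and Rheb lay below 0 in Lck-/- extracts, and Eif4ebp1 and Rps6kb1 in WT extracts, against 29% of all genes below 0 in Lck-/- and 28.9% in WT. The lists differ in Rheb and Rps6kb1, whose ratio differences between genotypes did not pass the test (below). The median of the tested members was 0.24 in Lck-/- and 0.28 in WT extracts, and that of all genes -0.04 in Lck-/- and 0.04 in WT. With the WT dye swaps exchanged, Larp1, Ddit4, Rptor and Tsc1 still lay above 0 in both genotypes, and Eif4ebp1, Rheb and Rps6kb1 missed the threshold. Without WT replicates 1 and 2, Rheb in Lck-/- and Tsc1 and Rps6kb1 in WT extracts missed it (limma adjusted p of 0.091, 0.087 and 0.25).

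**Figure D1:**
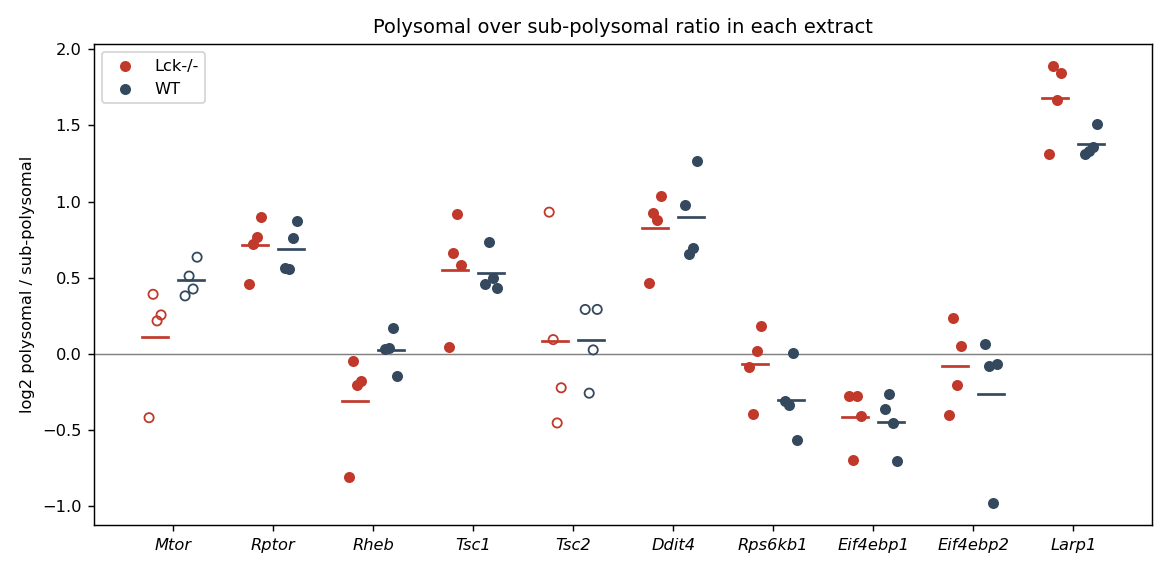
The log2 ratio of polysomal over sub-polysomal intensity (vertical axis) is plotted for each member and extract, Lck-/- left of WT, with a line at the mean of 4 extracts; open symbols mark Mtor and Tsc2, which were too dim to test. With dye swaps averaged as labelled, Larp1 lies above 1.3 and Eif4ebp1 below 0 in every extract.

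Larp1 had the highest ratio of the members. It was 1.31, 1.89, 1.67 and 1.84 in the 4 Lck-/- extracts, against 1.32, 1.33, 1.36 and 1.51 in the 4 WT extracts. Polysomal RNA thus exceeded sub-polysomal RNA 3.20-fold in Lck-/- extracts (mean 1.68, SE 0.10, limma adjusted p = 3.5e-06) and 2.60-fold in WT extracts (mean 1.38, SE 0.10, limma adjusted p = 2.9e-06), relative to the typical mRNA. That placed Larp1 at percentile 99.9 of the genes tested in Lck-/- and 99.3 in WT extracts. A second, dimmer Larp1 probe that starts 3059 bases upstream gave 0.91, 1.73, 1.74 and 1.74 in Lck-/- extracts, against 1.10, 1.23, 1.06 and 1.24 in WT extracts, so both probes lay far above 0 in all 8 extracts as labelled. With the exchange the brighter probe gave 2.03 and 0.62 in the first and second WT extracts, and Larp1 was still called in Lck-/- (limma adjusted p = 0.00051) and in WT extracts (limma adjusted p = 0.00059). The Larp1 probes lay on mm9 at chr11:57875424-57875483 and chr11:57872365-57872424, plus strand, and both were designed on the same RefSeq mRNA.

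Ddit4, the restraint on mTORC1, had ratios of 0.47, 0.92, 0.88 and 1.04 in Lck-/- extracts and 0.98, 0.66, 0.70 and 1.27 in WT extracts. As labelled, all 8 values were positive and the groups overlapped, with means of 0.83 in Lck-/- (limma adjusted p = 0.00033) and 0.90 in WT extracts (limma adjusted p = 0.00012). With the WT dye swaps exchanged, WT replicates 1 and 2 were 1.76 and -0.12, the SD of the 4 WT ratios was 0.81 in place of 0.28, and the limma adjusted p was 0.027 in Lck-/- and 0.014 in WT extracts. Rptor averaged 0.71 in Lck-/- and 0.69 in WT extracts, and Tsc1 0.55 in Lck-/- and 0.53 in WT extracts, with limma adjusted p between 0.00014 and 0.0039 across the 4 tests. The Tsc1 ratio of Lck-/- replicate 1 was 0.04, far below 0.58 to 0.92 in the other Lck-/- extracts. It averaged -0.38 on the array with the most probes above background and 0.47 on its dye swap.

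Eif4ebp1 and its paralogue Eif4ebp2, the inhibitors of eIF4E, did not share this position. Eif4ebp1 had ratios of -0.27, -0.70, -0.28 and -0.41 in Lck-/- extracts and -0.36, -0.27, -0.45 and -0.70 in WT extracts. As labelled, all 8 were negative, with means of -0.41 in Lck-/- (limma adjusted p = 0.0059) and -0.45 in WT extracts (limma adjusted p = 0.0031). With the WT dye swaps exchanged, WT replicates 1 and 2 were -1.09 and 0.46, the SD of the 4 WT ratios was 0.66 in place of 0.19, and Eif4ebp1 passed the test in neither Lck-/- (limma adjusted p = 0.14) nor WT extracts (limma adjusted p = 0.11). Without both extracts it passed in Lck-/- (limma adjusted p = 0.013) and in WT (-0.58, limma adjusted p = 0.017). Eif4ebp2 averaged -0.08 in Lck-/- and -0.26 in WT extracts and passed the test in neither. Its WT mean included 1 extract at -0.98 (replicate 3), while the other WT extracts lay between -0.08 and 0.06. Rps6kb1 averaged -0.07 in Lck-/- (limma adjusted p = 0.64) and -0.30 in WT extracts (limma adjusted p = 0.039), and Rheb -0.31 in Lck-/- (limma adjusted p = 0.048) and 0.02 in WT extracts (limma adjusted p = 0.87). The Rheb ratio was -0.81 in Lck-/- replicate 1, far below -0.05, -0.21 and -0.18 in the other Lck-/- extracts. Mtor and Tsc2 were too dim for the ratio test, which required, in each genotype, 6 or more of the 8 arrays with both channels well above background.

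No member differed in ratio between the genotypes by the test. In the comparison of ratios, Lck-/- minus WT, 0 of 8 members were called by limma and 0 had an unadjusted p below 0.05, where 3.65% of 8482 genes were called (228 higher and 82 lower). The differences ran from -0.33 (Rheb, SE 0.17, limma adjusted p = 0.30) to 0.30 (Larp1, SE 0.15, limma adjusted p = 0.27), with a median of 0.03 for the members and -0.04 for all genes. In 0 of 8 members did the 4 Lck-/- ratios lie wholly apart from the 4 WT ratios, against 14.3% of all genes tested. Rps6kb1 differed by 0.23 (SE 0.16), Eif4ebp2 by 0.19 (SE 0.23), Ddit4 by -0.08 (SE 0.17), and Eif4ebp1, Rptor and Tsc1 by 0.02 to 0.03. Missing the threshold does not show that the ratios were alike.

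The overall offset of the ratio depended on how the arrays were scaled. In a limma fit of the authors' deposited table the median difference of all tested genes was -1.14, and all 8 members were called lower in Lck-/- extracts, as were 7535 of the 8482 genes. Centring each array on its median in place of loess gave a median of -0.77 over all genes, and 6 of 8 members were called lower. With each column of the authors' deposited table centred on its own median, Larp1 differed by -0.03 and Eif4ebp1 by -0.23, and 0 of 8 members were called. The differences between members and typical genes are therefore read here, and the offset common to nearly all genes is not. The same volume, 1.5 µl, of each pool was labelled whatever its RNA content.

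Relative to other mRNAs, the level of Larp1 mRNA was higher in Lck-/- than in WT extracts, in both pools. The level over both fractions weights the 2 normalised pools equally and is not a total per cell. Averaged over both fractions, its log2 intensity was 14.29, 14.69, 14.28 and 14.57 in the Lck-/- extracts, against 13.80, 13.76, 13.58 and 13.78 in the WT extracts. Every Lck-/- extract lay above every WT extract, and the difference was 0.73 (SE 0.13, n = 4 each, limma adjusted p = 0.0055), or 1.65-fold. In such bulk samples a change in the share of cells that hold an mRNA and a change in the amount per cell cannot be told apart. Larp1 was the 1 member of 9 tested that was called in this comparison, where 20.8% of 9393 genes were (925 higher and 1032 lower), so the share of members called was not above that of all genes. The groups did not overlap in 2 of 9 members, Larp1 and Eif4ebp1, against 25.9% of all genes.

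**Figure D2:**
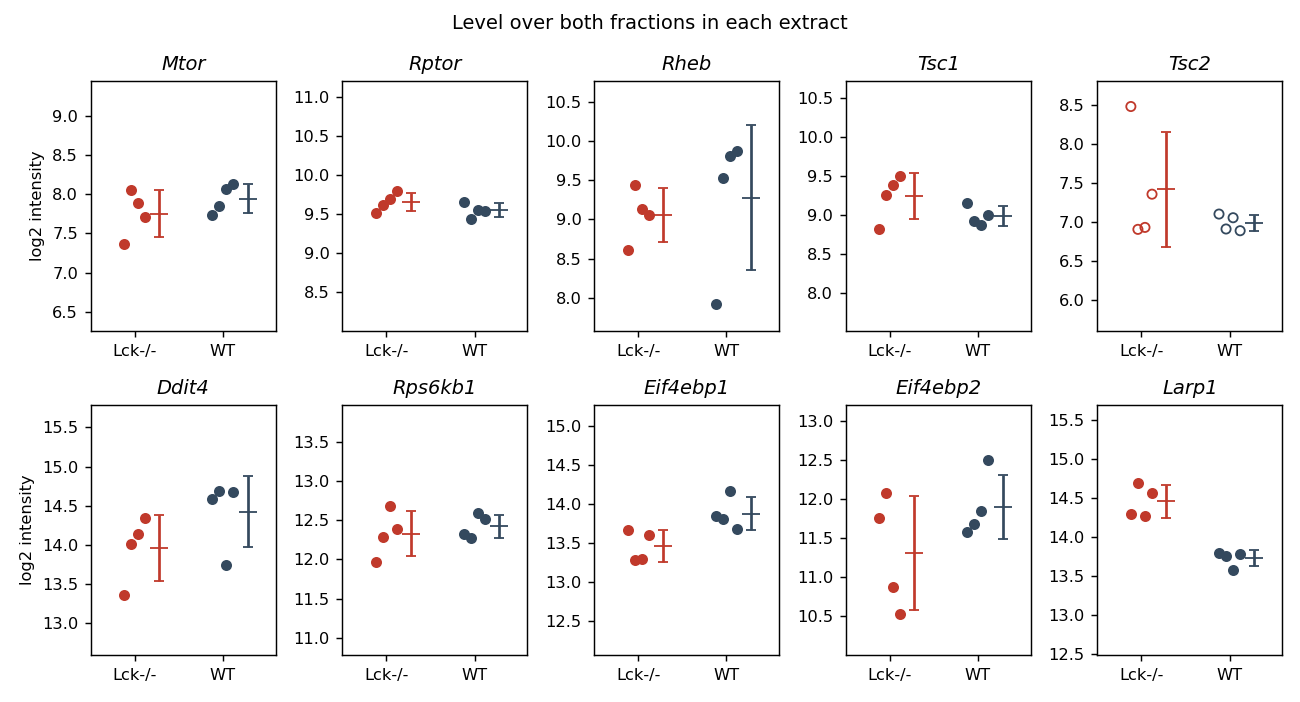
The log2 intensity averaged over both fractions (vertical axis, each panel spanning the same range) is plotted for each extract, Lck-/- left of WT, with the mean and SD of 4 extracts beside the points; open symbols mark Tsc2, which was too dim to test. The Larp1 and Eif4ebp1 panels are those in which the groups do not overlap.

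The polysomal level of Larp1 was 14.95, 15.63, 15.11 and 15.49 in Lck-/- extracts, against 14.46, 14.42, 14.26 and 14.54 in WT extracts. Its sub-polysomal level was 13.64, 13.74, 13.44 and 13.65 in Lck-/- extracts, against 13.14, 13.09, 12.90 and 13.03 in WT extracts. The groups stood apart in both pools, with differences of 0.88 (SE 0.18, limma adjusted p = 0.010) in polysomal RNA and 0.58 (SE 0.12, limma adjusted p = 0.010) in sub-polysomal RNA. In each pool Larp1 was again the 1 member of 9 that was called, beside 15.2% of 10292 genes in polysomal and 20.3% of 9703 in sub-polysomal RNA. Groups without overlap were seen in 1 of 9 members in polysomal RNA (23% of all genes) and in 2 of 9 in sub-polysomal RNA (26.1%). The dimmer Larp1 probe, fitted in place of the brighter, also rose, by 0.94 over both fractions (SE 0.16, limma adjusted p = 0.0039). The rise over both fractions was called on each slide alone, at 0.82 on slide 1 (limma adjusted p = 0.016) and 0.63 on slide 2 (limma adjusted p = 0.031), and without any 1 extract (0.65 to 0.79). Single pools were less firm. With median centring the polysomal difference was 0.32 (limma adjusted p = 0.40) and the sub-polysomal one 1.13, where the medians of all genes were -0.31 and 0.37. With the WT dye swaps exchanged, the sub-polysomal rise missed the threshold (limma adjusted p = 0.054), and without WT replicates 1 and 2 the polysomal rise did (0.90, limma adjusted p = 0.081).

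**Figure D3:**
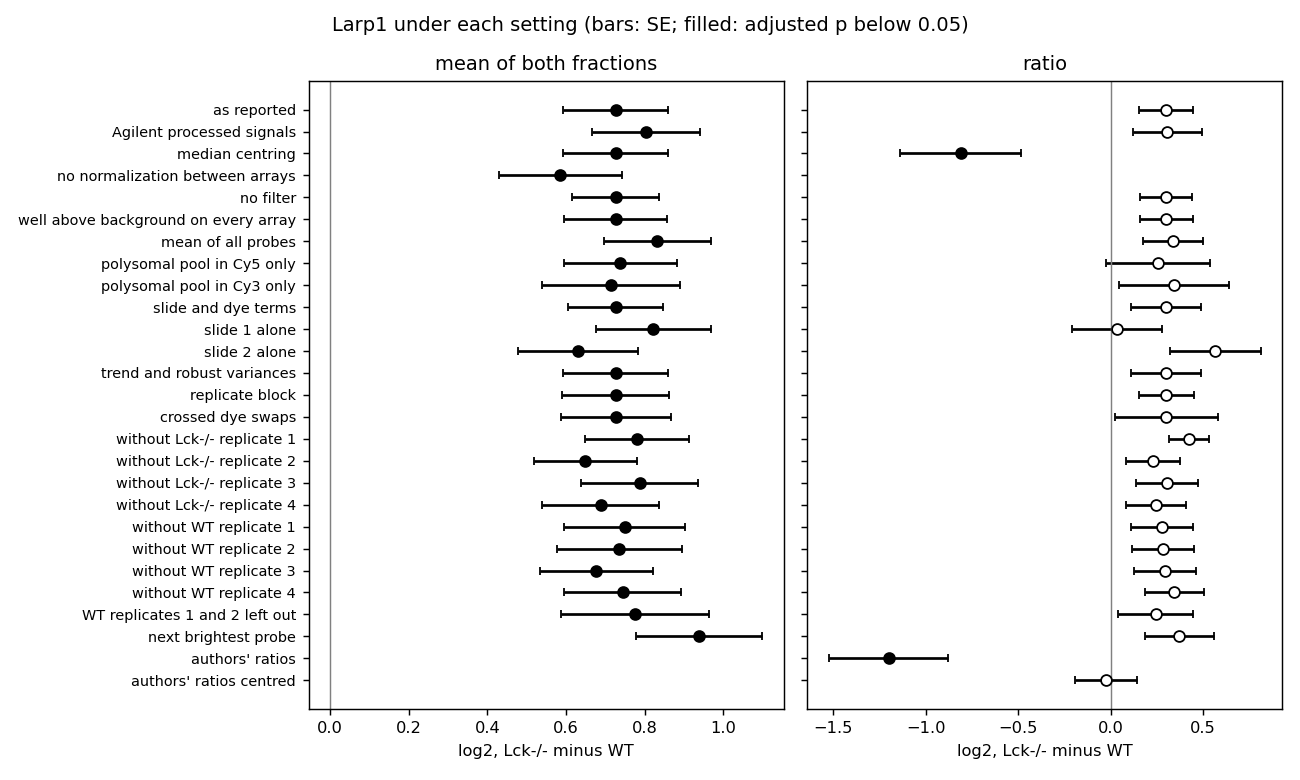
The Larp1 difference in log2, Lck-/- minus WT (horizontal axes; bars are SE, filled symbols have adjusted p below 0.05), is plotted for each way of processing, for the level over both fractions (left) and the ratio (right). All level differences lie above 0 and are filled, while the ratio is filled in only 2 settings, both with an offset common to nearly all genes.

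The mRNAs of the eIF4E inhibitors and of Ddit4 were lower in Lck-/- extracts on average without passing the test. Eif4ebp1 had a mean level of 13.66, 13.28, 13.29 and 13.61 in Lck-/- extracts, against 13.85, 13.81, 14.17 and 13.68 in WT extracts. The groups just missed each other, and the difference of -0.42 (SE 0.15) had a limma adjusted p of 0.068 over both fractions. In sub-polysomal RNA it was -0.43 (SE 0.15, limma adjusted p = 0.058), again without overlap, and in polysomal RNA -0.40 (SE 0.18, limma adjusted p = 0.16). With median centring these differences were 0.08 in sub-polysomal and -0.91 in polysomal RNA, where all genes had medians of 0.37 and -0.31. Leaving out Lck-/- replicate 1 brought Eif4ebp1 past the threshold over both fractions (-0.48, limma adjusted p = 0.041), as did a fit over all 16 arrays with slide and dye terms (-0.42, limma adjusted p = 0.039). Eif4ebp2 was 11.76, 12.08, 10.87 and 10.54 in Lck-/- extracts, against 11.58, 11.68, 11.85 and 12.50 in WT extracts. Lck-/- replicates 3 and 4 lay below all WT extracts and the other two among them, and the difference of -0.59 (SE 0.32) had a limma adjusted p of 0.21. Ddit4 was 13.35, 14.01, 14.13 and 14.34 in Lck-/- extracts and 14.59, 14.69, 13.74 and 14.67 in WT extracts. WT replicate 3 was the low one of its group and lay among the Lck-/- values, and the difference was -0.46 (SE 0.25, limma adjusted p = 0.21).

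Rptor, Tsc1 and Rps6kb1 had smaller differences in level over both fractions. Rptor averaged 9.66 ± 0.12 in Lck-/- and 9.55 ± 0.09 in WT extracts (SD, n = 4 each), a difference of 0.11 (SE 0.12, limma adjusted p = 0.54). Tsc1 averaged 9.24 ± 0.30 in Lck-/- and 8.99 ± 0.12 in WT extracts, a difference of 0.25 (SE 0.16, limma adjusted p = 0.27) that passed without Lck-/- replicate 1 (0.39, limma adjusted p = 0.040). Rps6kb1 averaged 12.33 ± 0.29 in Lck-/- and 12.43 ± 0.15 in WT extracts, a difference of -0.10 (SE 0.16, limma adjusted p = 0.70). These 3 members thus showed no call in either direction. The probe used for Rps6kb1 was the brightest of 4, and 2 of the others that were well above background on at least 15 of 16 arrays gave differences of -0.18 and 0.31, neither of them called in a fit over all probes.

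For Rheb the answer depended on the probe. The Rheb probe used (mm9 chr5:24309069-24309128, minus strand) averaged 9.06 ± 0.35 in Lck-/- and 9.28 ± 0.92 in WT extracts, a difference of -0.22 (SE 0.37, limma adjusted p = 0.71). WT replicate 1 stood at 7.92, below 9.53 to 9.87 in the other WT extracts, because 1 of its arrays read 6.89, not well above background, and the other 8.94. Without that extract Rheb fell by 0.67 (limma adjusted p = 0.037). A second Rheb probe that shares 50 of its 60 bases with the first (chr5:24309059-24309118) was well above background on all 16 arrays and read 9.67 on the array in question. Put in place of the first, it gave 8.71 ± 0.26 in Lck-/- and 9.25 ± 0.16 in WT extracts, a fall of 0.54 on the log2 scale (SE 0.15, limma adjusted p = 0.030). The choice of this probe was made after its values were seen.

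The Mtor probe used (mm9 chr4:147829016-147829075, plus strand) was designed on an Ensembl transcript, and it was dim, at 7.75 ± 0.30 in Lck-/- and 7.95 ± 0.19 in WT extracts (limma adjusted p = 0.43). A probe for the RefSeq mRNA, 102234 bases downstream (chr4:147931250-147931309), was dimmer still. In polysomal RNA it read 6.79, 7.02, 7.08 and 6.82 in Lck-/- extracts, against 7.79, 7.32, 8.12 and 7.73 in WT extracts, and stood well above background on 4 of 8 Lck-/- arrays and 7 of 8 WT arrays. The Lck-/- values stood near background, and the probe passed the filter through WT extracts alone. No size or test of the difference is therefore given for this probe, and its values are not read as a result. The brighter probe differed by -0.38 in polysomal RNA (SE 0.23, limma adjusted p = 0.27). Tsc2 was well above background on 4 of 8 arrays of each genotype in polysomal RNA, and on 5 of 8 Lck-/- and 3 of 8 WT arrays in sub-polysomal RNA, so it was not tested. In polysomal RNA these were all the arrays with that pool in Cy5 and none with it in Cy3. The mean level of Tsc2 was 8.48, 6.91, 6.93 and 7.36 in Lck-/- extracts and 6.89 to 7.10 in WT extracts. The 8.48 of Lck-/- replicate 1 averaged 9.78 on the array with the most probes above background and 7.18 on its dye swap.

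**Figure D4:**
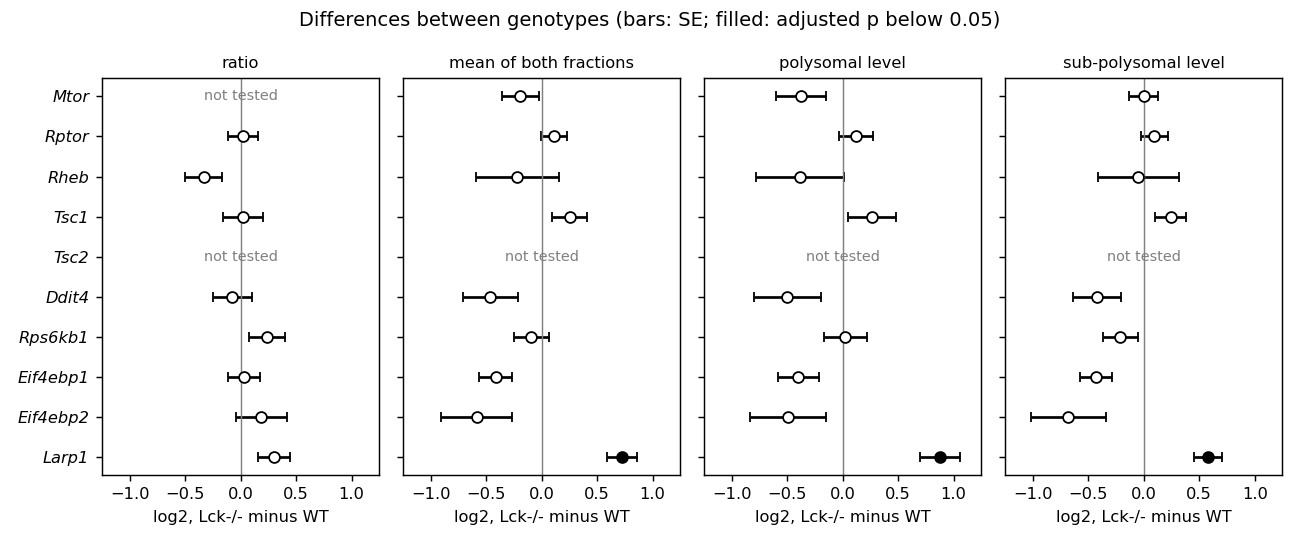
Differences in log2, Lck-/- minus WT (horizontal axes), are plotted with their SE for each member in 4 comparisons; filled symbols have adjusted p below 0.05. Larp1 is filled in the 3 comparisons of level and no member is filled in the comparison of ratios.

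By level over both fractions, the 5 genes whose pattern over the 8 extracts was most like that of Larp1 were Wars, a tRNA synthetase, Resf1, Trub2, Nploc4 and Mbtps1. Their Pearson correlations with Larp1 ran from 0.985 to 0.991 over 8 extracts, which include the difference between genotypes and share arrays. Each was called higher in Lck-/- extracts, by 0.43 (Mbtps1) to 0.85 (Resf1). These calls follow largely from choosing the genes by likeness to Larp1 and are not a separate result.

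Of 92 other genes of the pathway, in 6 lists, about as many were called as among all genes. Over both fractions 76 were tested, and 10 rose and 5 fell (19.7%, beside 20.8% of all genes), with a median difference of 0.05, beside 0.04 for all genes. In polysomal RNA 5 rose and 6 fell of 85 (12.9%, beside 15.2%), and in sub-polysomal RNA 10 rose and 4 fell of 76 (18.4%, beside 20.3%). In the ratio 1 of 68 rose and none fell (1.47%, beside 3.65%). With the WT dye swaps exchanged, 12 of the 15 calls over both fractions were kept, all but Telo2, Maf1 and Pdcd4, as were 3 of 11 in polysomal RNA, 8 of 14 in sub-polysomal RNA and 0 of 1 in the ratio. Without WT replicates 1 and 2, which leaves 2 WT extracts, 5 of the 15 were kept (Pik3cd, Pik3r2, Mios, Rps6kb2 and Atg101), and 1 of 11, 8 of 14 and 0 of 1 in the other comparisons. Among those kept, Rps6kb2 stood near background and Pik3r2 was dim in Lck-/- extracts (below). The differences of the 10 that were lost ran from -0.69 to 0.67, each in the direction given below.

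**Figure D5:**
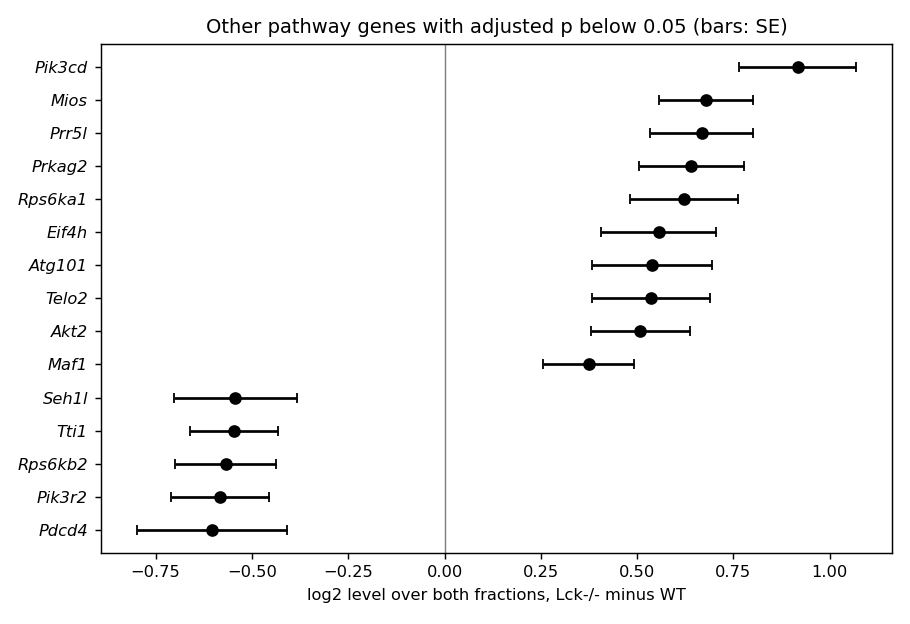
The log2 difference in level over both fractions, Lck-/- minus WT (horizontal axis; bars are SE, n = 4 extracts each), is plotted for the 15 other pathway genes with adjusted p below 0.05. Pik3cd rose by 0.92, the most of the 10 that rose, and Pdcd4 fell by 0.60, the most of the 5 that fell. Rps6kb2 stood near background and Pik3r2 was dim in Lck-/- extracts.

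Among the 24 inputs from PI3K, AKT, TSC and AMPK, 4 of 20 tested rose over both fractions and 1 fell. Pik3cd, the lymphocyte PI3K catalytic subunit, averaged 13.24 ± 0.22 in Lck-/- and 12.33 ± 0.21 in WT extracts (SD, n = 4 each). All Lck-/- extracts lay above all WT extracts, and the rise was 0.92 (SE 0.15, limma adjusted p = 0.0036). Prkag2, a regulatory subunit of AMPK, rose by 0.64, the kinase gene Rps6ka1 by 0.62 and Akt2 by 0.51, whereas Pik3r2, a regulatory subunit of PI3K, fell by 0.58 (limma adjusted p between 0.0094 and 0.020). The Pik3r2 probe was dim, at 7.69, 7.70, 7.70 and 8.02 in Lck-/- and 8.27, 8.27, 8.44 and 8.47 in WT extracts. Its difference was -0.98 with Agilent's processed signals, so its size is uncertain. Akt2 missed the threshold without Lck-/- replicate 4 (0.50, limma adjusted p = 0.053) and without WT replicate 3 (0.45, limma adjusted p = 0.057). In polysomal RNA Tbc1d7, which binds the TSC proteins, fell by 0.67 (limma adjusted p = 0.029), a call lost with the WT dye swaps exchanged (0.054). It was dim too, at 7.25 to 7.77 in Lck-/- polysomal RNA, and differed by -1.11 with Agilent's processed signals.

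Of 5 further subunits and partners of mTORC1, 3 were tested, and the 2 that assemble mTOR-family kinases went opposite ways. Telo2 rose by 0.54 (SE 0.15, limma adjusted p = 0.032) and Tti1 fell by 0.55 (SE 0.11, limma adjusted p = 0.0090), with 9.79 ± 0.07 in Lck-/- and 10.34 ± 0.10 in WT extracts. The Telo2 call was lost when any 1 of 5 extracts was left out (highest limma adjusted p = 0.092, at 0.44 without Lck-/- replicate 4) and with the exchange (limma adjusted p = 0.051). That of Tti1 was kept without any 1 extract and missed the threshold without WT replicates 1 and 2 together (-0.59, limma adjusted p = 0.0502). Mlst8, another subunit, differed by -0.01 (limma adjusted p = 0.97). Of 4 mTORC2 subunits, Prr5l rose by 0.67 (SE 0.13, limma adjusted p = 0.0074), and the Rictor difference was 0.19 (limma adjusted p = 0.53).

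Among 27 genes of Rag GTPases and amino acid sensing, of which 22 were tested over both fractions, Mios rose and Seh1l fell. Both encode subunits of the GATOR complex that activates mTORC1. Mios rose by 0.68 (SE 0.12, limma adjusted p = 0.0049), with 9.47 ± 0.08 in Lck-/- and 8.79 ± 0.15 in WT extracts. Seh1l fell by 0.54 (SE 0.16, limma adjusted p = 0.034), which was lost when any 1 of 6 extracts was left out (highest limma adjusted p = 0.091, at -0.50 without Lck-/- replicate 3). In single pools the Rag GTPase gene Rragc fell by 0.86 in polysomal RNA (limma adjusted p = 0.021) and Sec13, also of GATOR, by 0.52 in sub-polysomal RNA (limma adjusted p = 0.035), and both calls were lost with the WT dye swaps exchanged (0.062 for both).

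Of 19 effectors in translation, 18 were tested over both fractions. The factor Eif4h rose by 0.56 (limma adjusted p = 0.025), the second S6 kinase gene Rps6kb2 fell by 0.57 (limma adjusted p = 0.014), and Pdcd4, an inhibitor of the helicase eIF4A, fell by 0.60 (limma adjusted p = 0.048). The Rps6kb2 probe was dim, at 7.19, 7.05, 7.05 and 6.96 in Lck-/- and 7.40, 7.54, 7.83 and 7.76 in WT extracts. These Lck-/- values stood near background, and the difference was -1.34 with Agilent's processed signals, so its size and test are uncertain. Pdcd4 was called in 1 of the 8 fits without an extract, that without WT replicate 4, and its limma adjusted p was 0.059 with the WT dye swaps exchanged. Eif4h missed the threshold without Lck-/- replicate 4, WT replicate 2 or WT replicate 3 (0.45 to 0.59, limma adjusted p of 0.051 to 0.066). Of 13 effectors outside translation, the autophagy gene Atg101 rose by 0.54 (limma adjusted p = 0.033) and Maf1, a repressor of RNA polymerase III, by 0.37 (limma adjusted p = 0.045). Each was called in few of the 8 fits without an extract, Atg101 in 3 and Maf1 in 1 (highest limma adjusted p of 0.091 and 0.10). The Maf1 call was also lost with the exchange (limma adjusted p = 0.072). In single pools Tfe3 rose by 0.50 in sub-polysomal RNA (limma adjusted p = 0.029), a call lost with the exchange (limma adjusted p = 0.12). Lpin1 was called lower in polysomal RNA, a call also lost with the exchange. Its polysomal values of 6.83, 6.79, 6.71 and 6.65 in Lck-/- extracts stood near background, so no size or test of the difference is given.

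Rps6, whose pyrimidine start is shown above, was the 1 pathway gene called in the ratio. Its ratio was -0.59, -1.04, -0.22 and -0.37 in Lck-/- extracts, against -1.71, -1.40, -1.39 and -1.73 in WT extracts. The mRNA lay toward the sub-polysomal pool in all extracts and less so in every Lck-/- extract, with a difference of 1.00 (SE 0.18, limma adjusted p = 0.016). Its sub-polysomal level fell by 0.69 (limma adjusted p = 0.0095), and its level over both fractions differed by -0.19 (limma adjusted p = 0.28). Neither call was firm. The sub-polysomal call was lost with the WT dye swaps exchanged (limma adjusted p = 0.092), with Agilent's processed signals (-0.24, limma adjusted p = 0.20), with median centring (-0.12, limma adjusted p = 0.67) and with slide and dye terms (limma adjusted p = 0.065), and it was kept without any 1 extract. The sub-polysomal difference was -1.13 on slide 1 and -0.25 on slide 2. The ratio difference was 1.87 on slide 1 and 0.13 on slide 2, it was 0.09 with Agilent's processed signals (limma adjusted p = 0.77), and it lost its call with the WT dye swaps exchanged (limma adjusted p = 0.58). It also missed the threshold without Lck-/- replicate 3 (0.89), Lck-/- replicate 4 (0.94) or WT replicate 1 (0.95), with limma adjusted p of 0.056 to 0.058, and without WT replicates 1 and 2 together (limma adjusted p = 0.13).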

How the data were processed

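Spot and background intensity came from Agilent Feature Extraction 10.7.3.1 with probe positions on mm9, per the file headers. The same files hold processed intensity, and deposited flags of unit other that mark spots well above background. The authors' deposited table holds log2 ratios, dye swaps combined, with scale and centring not given in the sources used here. The submitters' processing notes name limma. Here mean intensities were corrected with normexp (offset 50), normalised by loess and, for levels, Aquantile, in R 4.3.3 with limma 3.58.1. Dye swaps were averaged per extract, 4 per genotype. Level tests needed 6 of 8 arrays of 1 genotype well above background. limma's lmFit and eBayes gave p-values, adjusted by Benjamini and Hochberg over all genes tested. On simulated data at these sizes, changes of 1 on the log2 scale were recovered in 64.2% (ratio) and 76.1% (level over both fractions) of genes, and changes of 0.5 in 29.9% and 22.4%. The number of extracts limits the precision. The members, lists and the named-gene rule (all members, the called genes of each list, at most 4 per list and comparison, and the 5 most alike to the leading member) were chosen with earlier results of these data known.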

Additional observations from a re-analysis of the deposited data

Results flagged for a closer look

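Each genotype's 4 extracts were examined for a value far from the others, in 80 groups of member values, of which 3 had one (3.75%), where chance gives about 1 in 20. The Eif4ebp2 ratio of WT replicate 3 was -0.98, against -0.08 to 0.06 in the other WT extracts. The Ddit4 level over both fractions of WT replicate 3 was 13.74, against 14.59 to 14.69 in the other WT extracts. The Rptor polysomal level of WT replicate 2 was 9.72, against 9.94 to 9.98 in the other WT extracts. What set these values apart was not tested.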

How the results depend on the processing

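The Larp1 rise over both fractions was called under all alternatives tried (0.59 to 0.94). With the authors' deposited ratios the count of members called in the ratio was 8, the members' median -1.15, and the differences of Rptor -0.98, Tsc1 -0.88, Rps6kb1 -1.13, Eif4ebp1 -1.41, Eif4ebp2 -1.09 and Larp1 -1.20, whereas all genes had a median of -1.14; with the columns of the authors' deposited table centred, Eif4ebp1 was -0.23 and Larp1 -0.025. With median centring 6 were called in the ratio, the members' median was -0.78, and Rptor was -0.63, Tsc1 -0.51, Rps6kb1 -0.73, Eif4ebp1 -0.99, Eif4ebp2 -0.74 and Larp1 -0.81, while all genes had medians of -0.77 (ratio), -0.31 (polysomal) and 0.37 (sub-polysomal); 2 members were then called in polysomal and 3 in sub-polysomal RNA, where Eif4ebp1 was 0.079. Other sign changes were of small ratio differences: Tsc1 -0.061 and Eif4ebp1 -0.17 (Agilent processed signals), Tsc1 -0.11 (polysomal pool in Cy5 only), Eif4ebp1 -0.038 (Cy3 only), Rptor -0.077 and Tsc1 -0.10 (slide 1), Eif4ebp1 -0.40 and Ddit4 0.31 (slide 2), Rptor -0.10 (WT replicates 1 and 2 left out) and Rps6kb1 -0.0046 (next brightest probe). In level over both fractions they were Mtor 0.064 and Rheb 0.0023 (Cy3 only), Rheb 0.089 (slide 2) and Rps6kb1 0.013 (mean of all probes). Members called, 1 as reported, were 2 over both fractions with slide and dye terms and with the next brightest probes. In polysomal RNA they were 0 with either dye orientation alone, on slide 1 and with WT replicates 1 and 2 left out, and 2 on slide 2 and with the mean of all probes. With the next brightest probes the count was 3. It includes an Mtor probe near background in Lck-/- that passed the filter through WT extracts alone, so that call is not read as a result. In sub-polysomal RNA they were 0 with crossed dye swaps, without normalization between arrays, with either orientation alone and on slide 2, and 2 on slide 1 and with slide and dye terms. With Cy5 alone, 2 (Lck-/-) and 3 (WT) members differed from 0. Without 1 extract, ratio differences were -0.039 to 0.11 (Rptor), -0.10 to 0.19 (Tsc1), -0.054 to 0.13 (Eif4ebp1), -0.051 to 0.30 (Eif4ebp2) and -0.16 to 0.046 (Ddit4), Rps6kb1 over both fractions was -0.21 to 0.024, and 1 to 3 members were called over both fractions and 1 to 2 in polysomal RNA. With the replicate number as a block (replicate block), 1 member was called over both fractions (Larp1, limma adjusted p = 0.014) and 0 in the ratio; extracts of 1 number did not deviate together (r from -0.20 to 0.42 over both fractions), so the numbers do not pair them, and calls over all genes in the ratio numbered 178, against 310 without the block and 41 with crossed dye swaps. The causes of these changes were not tested. With 4 extracts per genotype, changes of 0.5 on the log2 scale were mostly missed in simulated data. Crossed swaps and the left-out WT extracts were known choices from earlier results; centred columns and next brightest probes were added after the data were seen.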
